A study of Mus musculus with 12 samples.

Results

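The data described here are the 6 retinas of the 3 p16-3MR mice that were given ganciclovir (GCV) in this series: the retina of the eye raised to a high intraocular pressure (IOP) and the retina of the other eye of mice 1, 2 and 5. They were chosen by their labels, ctrl-GCV and IOP-GCV, from 12 retinas of 6 mice, and each IOP-treated retina was compared with the control retina of the same animal. The p16-3MR strain carries a viral thymidine kinase, with luciferase and red fluorescent protein, under the regulatory region of p16Ink4a, and GCV is toxic to cells that make the kinase. All mice of the series were p16-3MR and 12 to 16 weeks of age. In the IOP groups 1 eye was held at 85 to 90 mm Hg for 60 min, and the untouched contralateral eye was the control. GCV (25 mg/kg, intraperitoneal, once a day for 3 days) was given to mice 1, 2 and 5, so that their control retinas were exposed to GCV too. Mice 3, 4 and 6 were injected with PBS, and their retinas (groups ctrl and IOP) are used below for comparison. The retinas were collected at the end of the 3 days and sequenced as stranded mRNA libraries. No row of the table stands for the transgene, so its activity in these retinas was not measured.

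A short rise of pressure to this level stops and then restores blood flow in the retina, and the neurons most sensitive to it are the retinal ganglion cells, whose axons form the optic nerve. Injury of this kind is known to activate Mueller glia and astrocytes, through cytokines that signal by gp130 and STAT3, and to activate microglia, the resident phagocytes, while monocytes and neutrophils can enter from the blood. Interferon signaling and antigen presentation are well known parts of such a response.

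Values are FPKM, fragments per kilobase of exon scaled to the size of the library, for 24340 rows named by gene, of which 18509 were above 0 in at least 1 of the 12 libraries and were tested. The sums over all genes were 424131 to 473909 FPKM in the 6 retinas, and the depth, estimated from the smallest values, was 6840000 to 8620000 fragments, so that low values, below 1 FPKM or so, come from few fragments. Genes were compared as log2(FPKM + 1), and every log2 difference below is IOP-treated minus control on that scale, which understates the change of low genes. A gene is called when its adjusted p was under 0.05 (limma with the mouse as a block, Benjamini-Hochberg). Retinal markers were present in all 6 retinas, with the 3 cone markers summing to 289.7 to 705.0 FPKM and the 4 bipolar cell markers to 86.0 to 186 FPKM. Tissue from outside the retina differed between libraries: 6 lens genes summed to 5711 FPKM in the control retina of mouse 1, against 63.8 and 100.0 FPKM in those of mice 2 and 5, and to 2627 to 5199 FPKM in the IOP-treated retinas. The 3 cornea markers summed to 20.1, 9.2 and 4.7 FPKM in the control retinas of mice 1, 2 and 5. In their treated retinas the sums were higher, at 29.35, 27.2 and 55.65 FPKM. Pigment epithelium and blood markers moved in different directions in the 3 mice. The part of such tissue in the results was not tested, and lens genes are given apart at the end.

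IOP elevation under GCV was followed by a rise of inflammatory, interferon and glial genes on day 3. A total of 144 genes were called, which is 0.778% of the genes tested, and 139 of these rose (0.751%) while 5 fell (0.027%). The 10 largest rises among genes of at least 1 FPKM were those of Saa3, Lyz2, Cd74, H2-Aa, Cd52, Ly6c2, Edn2, H2-Ab1, Serpina3n and Timp1, which encode an acute-phase protein, lysozyme of phagocytes, the chains and chaperone of major histocompatibility complex (MHC) class II, surface proteins of leukocytes, endothelin 2 and glial or secreted inhibitors of proteases. All 144 called genes moved the same way in the 3 mice, 143 had no overlap between the 3 control and the 3 IOP-treated values, and 134 differed at least 2-fold. Of all genes tested 42.1% moved the same way in the 3 mice and 29.8% had no overlap, and since the calls rest on these same values, the counts describe the called genes and add no support to them. The number of calls depended on the fit. Without the pairing by mouse, 334 genes were called, 132 of them shared with the 144. With the 6 GCV libraries alone no gene was called by limma. The differences themselves are the same in that fit, since the other 6 libraries enter only through the spread, and 3535 genes had an unadjusted p under 0.05 in the fit of all 12 libraries. Without both eyes of mouse 1, 2 or 5 the fit called 1, 58 and 0 genes, of which 0, 38 and 0 were among the 144. Without mouse 3, 4 or 6, which enter only through the spread, it called 0, 0 and 9, and 7 of these 9 were among the 144. Sets of 3 values are in the order of mice 1, 2 and 5 throughout.

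**Figure D1:**
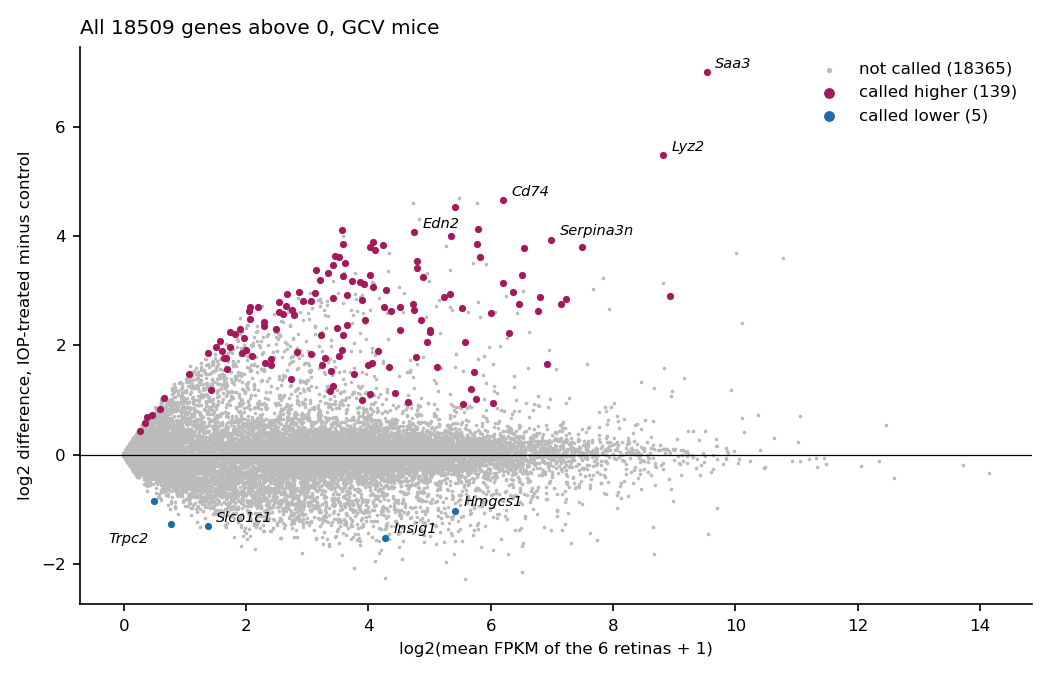
Log2 difference between IOP-treated and control retinas of the 3 GCV mice (vertical axis, log2(FPKM + 1) scale) against the mean level of each gene over the 6 retinas (horizontal axis, log2 scale), with 1 point a gene. The 139 genes called higher (red) reach a log2 difference of 7.0 at Saa3, and the 5 called lower (blue) lie between -1.52 and -0.86.

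The response differed in size between the mice. Among 12898 genes averaging at least 1 FPKM, 594, 451 and 1212 were at least 2-fold higher in the IOP-treated eye of mice 1, 2 and 5, and 67, 731 and 1118 were at least 2-fold lower. Of the 139 genes that rose, 114 differed most in mouse 5 and 100 differed least in mouse 2, with median log2 differences of 2.41, 1.87 and 2.97 in mice 1, 2 and 5. Mouse 1 had the fewest genes 2-fold lower, whereas its median rise lay between those of the other mice. The widest ranges between mice among called genes were those of Saa3, Ly6c2, Cfb, Fcer1g and Cd68. Across genes the within-mouse differences had a Pearson's r of 0.531 between mice 1 and 2, 0.692 between mice 1 and 5 and 0.683 between mice 2 and 5, as a description over genes, which are not independent replicates.

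**Figure D2:**
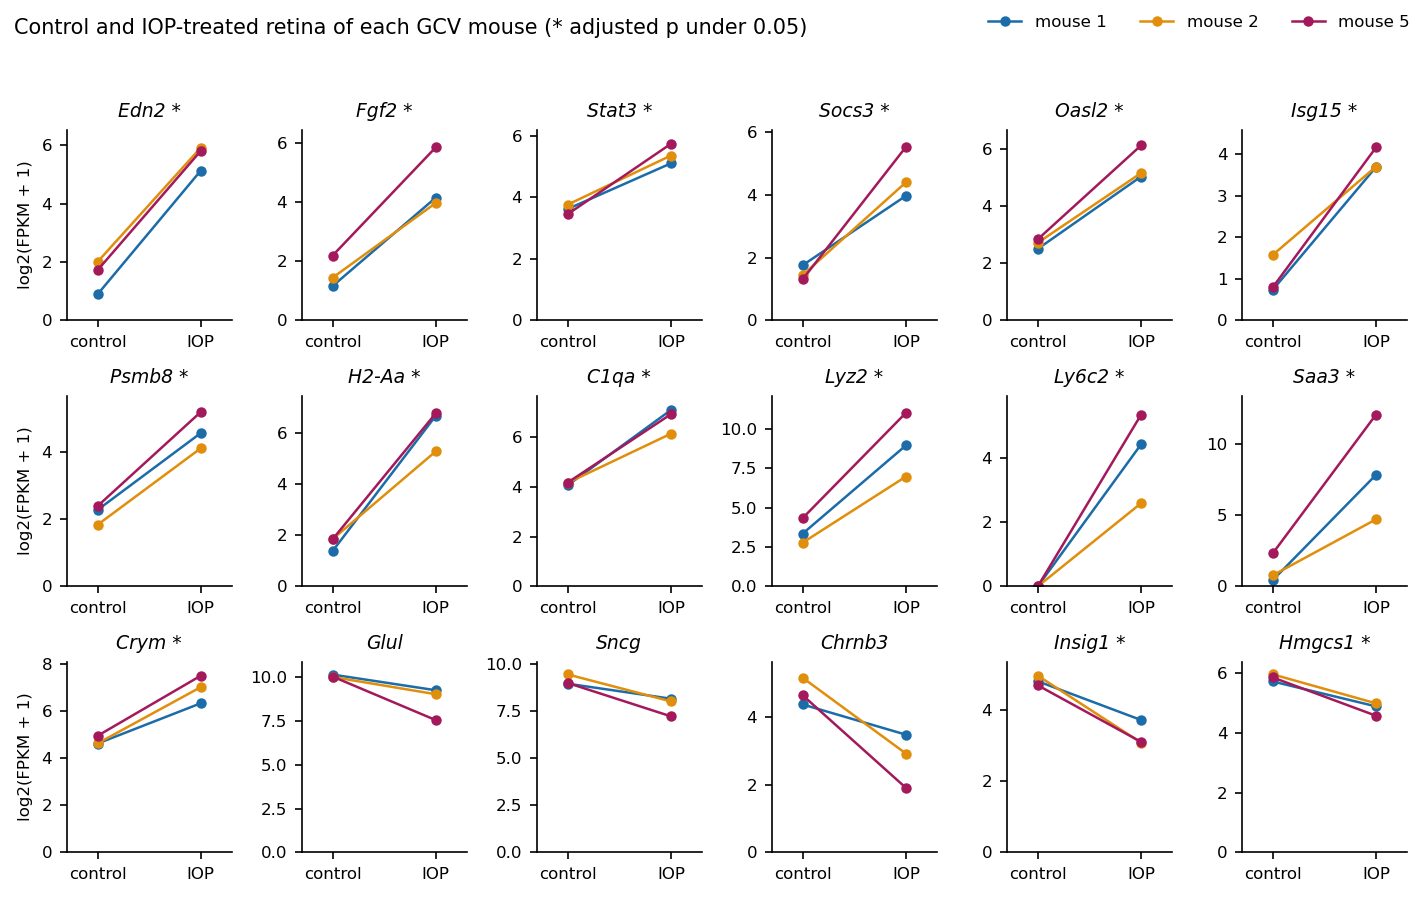
Levels of 18 genes as log2(FPKM + 1) in the control and the IOP-treated retina of each GCV mouse, with a line for each animal and an asterisk where the gene was called. In every panel the 3 lines run the same way, with the steepest rise of Saa3, Lyz2 and Ly6c2 in mouse 5.

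The genes with the smallest adjusted p, 0.0214 for 8 of them, included those of Edn2, Fgf2 and Crym. Edn2, the vasoconstrictor endothelin 2, which injured photoreceptors are known to make as a signal to glia, stood at 0.858, 3.02 and 2.30 FPKM in the control retinas of mice 1, 2 and 5 and at 34.0, 59.3 and 54.9 FPKM in their IOP-treated retinas, a log2 difference of 4.08 (SE 0.30). All 3 treated values were above all control values, and the 3 mice differed little, with log2 differences of 4.24, 3.91 and 4.08. Fgf2, a growth factor that supports photoreceptors after injury, went from 1.24, 1.72 and 3.58 to 16.9, 14.8 and 57.3 FPKM (log2 difference 3.07, SE 0.23). Exons of Nudt6 lie opposite those of Fgf2, and whether reads were counted by strand is not given in the sources used here. Crym, a thyroid hormone binding protein listed here with the genes of resting Mueller glia, went from 23.6, 23.7 and 29.9 to 79.7, 129 and 181 FPKM (log2 difference 2.22, SE 0.17), lowest in mouse 1. Tagln2 and Antxr2, an actin-binding protein and a receptor for matrix collagen, had log2 differences of 2.70 (SE 0.21) and 1.92 (SE 0.15). Pbxip1 had the smallest change of the group and the closest agreement between mice, with 10.5, 13.7 and 13.8 FPKM in control and 25.4, 29.8 and 31.3 FPKM in treated retinas (log2 difference 1.13, SE 0.09). Psmb8 and Oasl2, the other two, belong to the interferon response below, and C1qa and Ccr1 followed with an adjusted p of 0.0258. Ccr1, a chemokine receptor of myeloid cells, was at 0.0497, 0.195 and 0.492 FPKM in control and 2.99, 2.40 and 6.11 FPKM in treated retinas.

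Of 38 genes of reactive gliosis, 14 rose and none fell, with a median log2 difference of 1.70 against 0.00 over all genes tested. The medians of the list were 1.40, 1.52 and 2.47 in mice 1, 2 and 5. The lists share members, so their counts are not separate results. Of the 14, Bcl3, Cebpd, Cd44, Edn2, Fgf2, Lcn2, Osmr, Psmb8, Serpina3n, Serping1, Socs3, Stat3 and Timp1 are also on other lists. Stat3, the transcription factor activated by gp130 cytokines, was at 11.3, 12.5 and 9.91 FPKM in control and 33.2, 39.8 and 52.1 FPKM in treated retinas (log2 difference 1.79, SE 0.18, adjusted p = 0.0258). Socs3, its target and inhibitor, went from 2.38, 1.73 and 1.48 to 14.7, 20.1 and 45.1 FPKM (log2 difference 3.13, SE 0.42). The groups did not overlap for either gene, and mouse 5 was highest. Among the cytokine genes themselves, Cntf, ciliary neurotrophic factor, rose from 4.77, 4.0 and 4.35 to 14.2, 13.3 and 16.2 FPKM (log2 difference 1.53, SE 0.15), while its receptor Cntfr was at 21.0, 28.7 and 21.8 FPKM in control and 13.6, 15.4 and 6.16 FPKM in treated retinas and was not called (adjusted p = 0.115). Osmr, the oncostatin M receptor, rose on the log2 scale by 1.68 (SE 0.21). In all, 4 of 34 genes of gp130 and interleukin-1 signaling rose. Il1b and its decoy receptor Il1r2 were higher in all 3 treated retinas without a call (log2 difference 2.85, SE 0.57, and log2 difference 1.59, SE 0.27), with Il1b at 4.98, 3.00 and 40.3 FPKM in the treated retinas of mice 1, 2 and 5. Jak1 and Il33, the most abundant genes of this list, differed on the log2 scale by -0.18 and 0.27.

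Transcription factors of the acute response rose as well. Of 32 genes of the C/EBP, AP-1, ATF and NF-kB families, Cebpd, Bcl3 and Junb rose. Cebpd was at 2.78, 3.82 and 3.41 FPKM in control and 40.8, 51.6 and 57.9 FPKM in treated retinas, and Bcl3, a nuclear partner of NF-kB, went from 0.397, 0.311 and 0.349 to 10.2, 15.1 and 39.8 FPKM, with log2 differences of 3.55 (SE 0.33) and 3.85 (SE 0.41). Both were several times higher in every treated retina than in any control. Atf3, which is induced in injured ganglion cells, was at 5.27, 3.88 and 3.78 FPKM in control and 14.2, 16.0 and 44.9 FPKM in treated retinas and was not called (log2 difference 2.11, SE 0.37, adjusted p = 0.0713), and Egr1 and Fosb were likewise higher in each mouse without a call. Gadd45b, a stress gene listed with the p53 response, rose on the log2 scale by 2.70 (SE 0.32) and was the 1 called gene of 30 on that list.

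Among acute-phase genes Saa3 had the largest difference of all called genes and the one that varied most between mice. Of 19 measured genes, Saa3, Lcn2, Serpina3n and Timp1 rose, and the median was 1.41 (1.68, 0.41 and 1.83 in mice 1, 2 and 5). Saa3, serum amyloid A3, was at 0.358, 0.716 and 3.99 FPKM in the control retinas of mice 1, 2 and 5 and at 224, 24.9 and 4173 FPKM in the treated ones (log2 difference 7.0, SE 1.01, adjusted p = 0.0480). No other called gene varied as much between mice, with within-mouse log2 differences of 7.37, 3.92 and 9.71. Lcn2, the iron-binding lipocalin 2, went from 13.6, 16.3 and 23.8 to 284, 90.2 and 646 FPKM, and Serpina3n, a protease inhibitor of reactive astrocytes, from 12.0, 11.3 and 18.9 to 163, 193 and 357 FPKM. Timp1, an inhibitor of matrix metalloproteinases, was at 0.547, 0.541 and 1.01 FPKM in control and 14.4, 14.4 and 64.4 FPKM in treated retinas, with the value of mouse 5 far above the other two. Cp, the copper oxidase ceruloplasmin, was at 39.5, 40.6 and 55.3 FPKM in control and 129, 84.8 and 228 FPKM in treated retinas and missed the threshold (adjusted p = 0.0689).

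Interferon-stimulated genes formed the list with the most calls. Of 44 genes, 15 rose, none fell, all 44 had a log2 difference above 0 and 43 were higher in all 3 treated retinas, where 25.1% of genes averaging at least 1 FPKM were. The median was 1.64, and 1.83, 1.31 and 2.21 in mice 1, 2 and 5. Oasl2, an oligoadenylate synthetase-like protein, went from 4.69, 5.59 and 6.18 to 31.9, 34.8 and 69.1 FPKM (log2 difference 2.75, SE 0.19). Isg15, the ubiquitin-like modifier, went from 0.669, 1.99 and 0.741 to 12.0, 12.0 and 17.0 FPKM (log2 difference 2.82, SE 0.27), and Ifit1, which binds viral RNA, from 2.09, 2.63 and 2.77 to 18.8, 18.8 and 37.7 FPKM (log2 difference 2.83, SE 0.28). These 3 genes had treated values close to each other in mice 1 and 2 and higher in mouse 5. Rtp4, Zbp1, a sensor of nucleic acid in the Z form, and Ifitm3, a membrane protein that blocks virus entry, rose on the log2 scale by 3.27 (SE 0.31), 2.98 (SE 0.29) and 3.30 (SE 0.33). Ifitm2, a near copy of Ifitm3 that can share reads with it, was at 13.4, 11.6 and 13.3 FPKM in control and 64.4, 37.3 and 194 FPKM in treated retinas and was not called (adjusted p = 0.0595). Of the 16 STAT and IRF factors that drive these genes, 4 rose, among them Irf7, Irf9 and Stat3. Irf7 went from 7.27, 6.93 and 7.48 to 47.7, 39.4 and 127 FPKM (log2 difference 2.94, SE 0.35) and Irf9 from 4.93, 5.31 and 6.62 to 23.1, 34.0 and 80.8 FPKM (log2 difference 2.64, SE 0.27). Stat2, a partner of Irf9, and Irf8 had log2 differences of 1.43 (SE 0.23) and 1.84 (SE 0.27) with an adjusted p of 0.0586 and 0.0504.

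The core of the interferon-stimulated response element, GAAANNGAA on either strand, was found in 56.8% of the 37 RefSeq promoter windows of this list (33 of its 44 genes matched; 250 bases before to 50 after the start), and in 8.56% of all 32851 windows. A STAT site, TTCNNNGAA, was in 27.0% and 8.3% of these windows. The 250 bases before the start of Isg15 and Ifit1, which had the smallest adjusted p among list genes with the element, are shown because both genes rose in every mouse. They lie at chr4:156200819-156201068 and chr19:34640639-34640888 of build GRCm38.p6, are written 5′ to 3′ on the strand of the gene, and carry the element in capitals, on either strand and overlapping where the run is long. The matches end 70, 64 and 58 bases before the start of Isg15 and 101, 95 and 76 bases before that of Ifit1, counted from the RefSeq start, and GENCODE M21 begins Ifit1 18 bases earlier than RefSeq. A match is a description of the letters and not evidence of binding.
Isg15: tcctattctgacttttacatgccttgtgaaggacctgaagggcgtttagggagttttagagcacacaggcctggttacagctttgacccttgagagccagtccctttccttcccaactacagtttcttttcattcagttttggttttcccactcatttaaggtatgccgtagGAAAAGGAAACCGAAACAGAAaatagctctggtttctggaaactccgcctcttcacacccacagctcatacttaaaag
Ifit1: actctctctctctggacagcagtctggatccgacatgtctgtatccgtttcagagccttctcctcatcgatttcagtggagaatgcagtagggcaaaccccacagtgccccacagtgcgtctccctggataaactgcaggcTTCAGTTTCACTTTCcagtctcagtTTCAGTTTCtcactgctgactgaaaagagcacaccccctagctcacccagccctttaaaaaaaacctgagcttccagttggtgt

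Genes of antigen presentation rose in both classes. Of 20 genes of MHC class I and antigen processing, 5 rose and none fell, with a median of 1.54. Psmb8, a catalytic subunit of the immunoproteasome, went from 3.87, 2.58 and 4.27 to 22.9, 16.5 and 36.0 FPKM (log2 difference 2.46, SE 0.16, adjusted p = 0.0214). B2m, the light chain of class I, was among the most abundant of the called genes, with 97.8, 109 and 106 FPKM in control and 855, 427 and 1315 FPKM in treated retinas (log2 difference 2.90, SE 0.35). Treated values were lowest in mouse 2 for both. The heavy chains H2-K1, H2-D1 and H2-Q7 rose on the log2 scale by 2.89 (SE 0.31), 2.84 (SE 0.30) and 2.65 (SE 0.32), though reads can be shared among these near-identical genes. Psmb9 was at 1.23, 2.44 and 2.28 FPKM in control and 12.0, 7.24 and 28.4 FPKM in treated retinas, with an adjusted p of 0.0522. The element GAAANNGAA was in 26.3% of the 19 promoter windows of this list. B2m had the smallest adjusted p of the members with the element and is shown from chr2:122147437-122147686, with the element in capitals 131 bases before the start.
B2m: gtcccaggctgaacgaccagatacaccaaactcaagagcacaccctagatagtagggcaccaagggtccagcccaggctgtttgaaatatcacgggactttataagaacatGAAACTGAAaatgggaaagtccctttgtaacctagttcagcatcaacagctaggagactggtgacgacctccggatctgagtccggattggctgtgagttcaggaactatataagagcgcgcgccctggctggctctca

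MHC class II genes mark professional antigen-presenting cells, and their called members had the larger rises, from 3.80 to 4.66 on the log2 scale against 2.46 to 2.90 for the called members of class I. Of 10 measured genes, 4 rose and none fell. The median of the whole list was 1.43 (1.86, 1.15 and 1.67 in mice 1, 2 and 5). That of class I was 1.54 (1.95, 1.02 and 2.38), so the larger rises hold for the called members only. Cd74, the invariant chain, went from 5.16, 5.70 and 2.45 FPKM in the control retinas of mice 1, 2 and 5 to 176, 74.7 and 171 FPKM in the treated ones (log2 difference 4.66, SE 0.52). The α chain H2-Aa was at 1.61, 2.59 and 2.58 FPKM in control and 100.0, 37.6 and 107 FPKM in treated retinas (log2 difference 4.54, SE 0.42), and H2-Ab1 and H2-Eb1, the β chains, rose on the log2 scale by 4.0 (SE 0.45) and 3.80 (SE 0.44). For each of the 4 the treated value of mouse 2 was below those of mice 1 and 5 and above every control. The peptide-loading chain H2-DMb1 was at 0.355, 0.233 and 0.521 FPKM in control and 5.28, 2.08 and 4.81 FPKM in treated retinas and was not called. No window of this list held GAAANNGAA (8 windows of 7 genes).

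Of 23 measured complement genes 6 rose: the C1q chains C1qa, C1qb and C1qc, the C1 inhibitor Serping1, the receptor C3ar1 and the alternative pathway protease Cfb. C1qa went from 15.8, 17.0 and 17.2 to 137, 70.1 and 121 FPKM (log2 difference 2.59, SE 0.22), and C1qb and C1qc changed alike (log2 difference 2.76, SE 0.30, and log2 difference 2.69, SE 0.33). Control values of C1qa lay within a narrow range, and the lowest treated value, in mouse 2, was about 4 times the highest control. Cfb was variable, at 0.154, 0.302 and 0.508 FPKM in control and 19.7, 4.11 and 37.9 FPKM in treated retinas (log2 difference 3.61, SE 0.52, adjusted p = 0.0490). The inhibitors Clu and Cd59a, with C1qb the most abundant genes of the list, differed on the log2 scale by 0.42 (SE 0.25) and 0.25 (SE 0.23) without a call.

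Genes of microglia and phagocytes rose. Of 40 genes of activated microglia, phagocytes and the lysosome, 8 rose and 38 were higher in all 3 treated retinas, with a median of 2.01 (1.85, 1.14 and 2.88 in mice 1, 2 and 5). Of 18 genes of homeostatic microglia 3 rose, with a median of 0.80. Lyz2 was at 9.18, 5.84 and 19.1 FPKM in the control retinas of mice 1, 2 and 5 and at 489, 124 and 2049.7 FPKM in the treated ones (log2 difference 5.48, SE 0.52). Cd68, a lysosomal protein of macrophages, went from 3.91, 2.65 and 4.99 to 67.8, 20.1 and 225 FPKM (log2 difference 3.86, SE 0.56), and Cd52 from 3.10, 3.10 and 6.49 to 77.1, 45.0 and 190.1 FPKM (log2 difference 4.14, SE 0.44). Mouse 5 had the highest and mouse 2 the lowest treated value of all 3. The Fc receptors Fcgr1 and Fcgr3, the pattern receptor Clec7a and the protease Ctss rose on the log2 scale by 2.36 to 2.77. On the homeostatic list the genes that rose were the adaptors Tyrobp and Fcer1g and the cytoskeletal Aif1, at 3.14 (SE 0.34), 3.78 (SE 0.54) and 2.20 (SE 0.26), which other myeloid cells express too, while Trem2 and Fcrls had 2.63 and 1.90 without a call. The markers P2ry12, Cx3cr1 and Tmem119 together summed to 4.54, 5.88 and 5.81 FPKM in control and 10.4, 8.10 and 10.8 FPKM in treated retinas. Apoe and Ctsd, the most abundant genes of the activated list, were at 1710.4, 810.2 and 1602 and 631, 429.8 and 1056 FPKM in treated retinas and were not called (log2 difference 1.19, SE 0.33, and log2 difference 1.17, SE 0.31). In RNA from whole retinas, a change in the number of cells of a type and a change in RNA per cell cannot be told apart, here and below.

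Of 28 measured genes of leukocytes that enter from the blood, Ly6c2, Ccr2, Ms4a7, Plac8 and S100a8 rose and none fell, with a median of 1.07. Ly6c2, a surface protein of inflammatory monocytes, was listed at 0 in all 3 control retinas and at 20.4, 5.02 and 39.6 FPKM in the treated retinas of mice 1, 2 and 5. Ccr2, the receptor that brings monocytes into tissue, was at 0.0387, 0.0758 and 0.0851 FPKM in control and 6.51, 2.72 and 9.31 FPKM in treated retinas (log2 difference 2.63, SE 0.29), and S100a8, of neutrophils and monocytes, at 1.14, 2.90 and 11.6 FPKM in control and 30.7, 21.6 and 267 FPKM in treated retinas (log2 difference 3.61, SE 0.49). The control of mouse 5 had the most S100a8 of the controls, and its treated retina the most of all. S100a4, a calcium-binding protein that other cells make too, was at 24.3, 9.42 and 10.5 FPKM in control and 51.4, 51.1 and 248 FPKM in treated retinas and was not called (log2 difference 2.60, SE 0.58). The 6 leukocyte markers together (Ly6c2, Ccr2, S100a8, S100a9, Cd3e and Cd79a) summed to 1.92, 5.18 and 16.7 FPKM in control and 73.3, 37.1 and 422 FPKM in treated retinas, while the T cell gene Cd3e was listed at 0 in all 3 controls. Of 25 chemokine genes, with a median of 0.79, Ccl2, Ccl4 and Ccl6 rose and none fell, 14 were higher and 3 lower in all 3 treated retinas. Ccl2, which attracts Ccr2-bearing monocytes, went from 0, 0.203 and 0.455 to 3.86, 4.98 and 19.2 FPKM (log2 difference 2.80, SE 0.35), and Ccl4 and Ccl6 rose on the log2 scale by 2.14 (SE 0.25) and 3.84 (SE 0.39). Ccl5 was at 0, 0.358 and 0 FPKM in control and 29.7, 4.75 and 31.1 FPKM in treated retinas, a large difference that was lowest in mouse 2 and missed the threshold (adjusted p = 0.0598). Cxcl14 and Cx3cl1, the latter a chemokine of neurons, were among the 3 most abundant genes of the list and lower in each treated retina without a call, with Cxcl14 at 39.7, 61.1 and 40.2 FPKM in control and 31.6, 22.9 and 20.9 FPKM in treated retinas (log2 difference -0.87, SE 0.26) and Cx3cl1 at 24.7, 44.8 and 27.5 FPKM in control and 23.3, 17.8 and 9.14 FPKM in treated retinas (log2 difference -0.95, SE 0.44). Cd44, the hyaluronan receptor, was the 1 gene of 15 leukocyte adhesion genes to rise (log2 difference 2.18, SE 0.32).

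**Figure D3:**
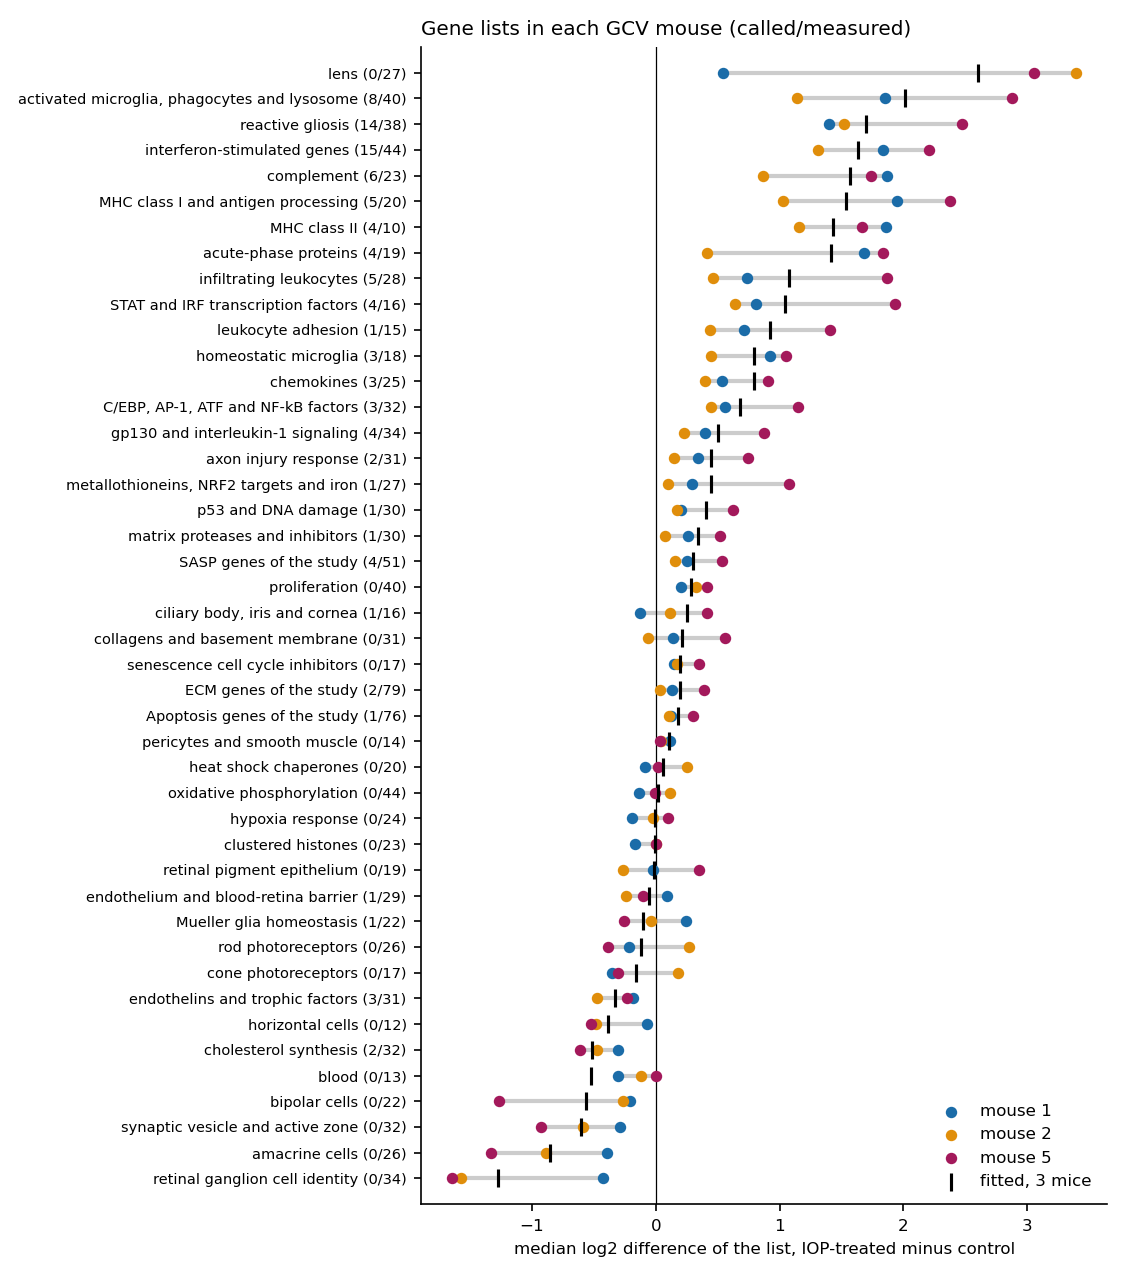
Median log2 difference between the IOP-treated and the control retina for each of 44 gene lists (rows) in mice 1, 2 and 5 (points, joined by a grey line) and in the fit of the 3 mice (black tick), with the number of genes called and measured in brackets. The phagocyte list lies at 1.14 to 2.88 in all 3 mice and the retinal ganglion cell list at -1.64 to -0.43, while the lens list runs from 0.54 in mouse 1 to 3.39 in mouse 2.

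Genes of retinal ganglion cells were lower in the treated retinas of all 3 mice without any call. Of 34 genes none was called, 33 had a log2 difference below 0 and 30 were lower in all 3 mice, where 24.6% of genes averaging at least 1 FPKM were. The median was -1.28, and -0.43, -1.57 and -1.64 in mice 1, 2 and 5. The gene with the smallest p, Pou4f3, a transcription factor of ganglion cells, was at 3.10, 6.24 and 3.27 FPKM in control and 1.38, 0.592 and 0.467 FPKM in treated retinas (log2 difference -1.50, SE 0.29, adjusted p = 0.0943). Sncg, γ-synuclein, was at 497, 699.6 and 510.0 FPKM in control and 285, 259 and 149 FPKM in treated retinas (log2 difference -1.33, SE 0.35, adjusted p = 0.149), and the neurofilament gene Nefh at 39.4, 75.1 and 53.3 FPKM in control and 26.8, 20.1 and 15.5 FPKM in treated retinas (log2 difference -1.37, SE 0.29). Every control value of these 3 genes was above every treated value, and the gap was least in mouse 1. Chrnb3, a nicotinic receptor subunit, and Nefl had log2 differences of -1.95 (SE 0.49) and -1.57 (SE 0.56). The 1 gene above 0 was Spp1, osteopontin, which phagocytes express too (log2 difference 1.99, SE 0.54) and which is named here after its value was seen. The control retina of mouse 2 had the highest values of these neuronal genes among the controls: 4 ganglion cell markers summed to 775, 1192 and 840 FPKM in controls and 490, 376 and 224 FPKM in treated retinas.

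Of 31 genes of the injured axon, Ecel1, an endopeptidase of injured neurons, and Sprr1a, which promotes axon outgrowth, rose and none fell. The median was 0.45, with 16 genes higher and 6 lower in all 3 mice. Ecel1 went from 0.147, 0.0480 and 0.161 to 6.28, 5.52 and 7.02 FPKM (log2 difference 2.70, SE 0.26) and Sprr1a from 0.632, 1.88 and 2.34 to 10.7, 13.2 and 40.3 FPKM (log2 difference 2.93, SE 0.31). Ecel1 had nearly the same treated value in the 3 mice, whereas Sprr1a was highest in mouse 5. Gap43, the growth cone protein, differed on the log2 scale by -0.15 (SE 0.28). Csrp3, a LIM domain protein, lay lower in each treated retina without a call, at 7.57, 7.66 and 5.78 FPKM in control and 3.04, 2.18 and 1.73 FPKM in treated retinas (log2 difference -1.28, SE 0.29).

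Genes of other neurons lay nearer to 0 by the medians of their lists. In mouse 1 the medians of amacrine and ganglion cell genes were close, at -0.40 and -0.43. Calb2, on the amacrine list, and Nefl, on the horizontal cell list, are also on the ganglion cell list. Of 26 amacrine cell genes, 22 were lower in all 3 mice with a median of -0.85, of 22 bipolar cell genes 15 with a median of -0.56, and of 12 horizontal cell genes 9 with a median of -0.39. Of 26 rod genes 1 was lower in all 3 mice, with a median of -0.12, and of 17 cone genes 5, with a median of -0.16. The cone share is near the 24.6% of genes averaging at least 1 FPKM that were lower in all 3 mice. The rod share is below it. No gene of these 5 lists was called. Pax6, a factor of amacrine and other inner neurons, was at 108, 119 and 113 FPKM in control and 76.0, 62.3 and 49.4 FPKM in treated retinas (log2 difference -0.87, SE 0.20, adjusted p = 0.125). Among cone genes Gnb3, a transducin subunit also of bipolar cells, was at 263, 215 and 244 FPKM in control and 428, 583 and 697 FPKM in treated retinas (log2 difference 1.22, SE 0.24), and cone arrestin Arr3 at 151, 93.8 and 133 FPKM in control and 64.1, 87.0 and 28.5 FPKM in treated retinas (log2 difference -1.17, SE 0.35), so that they lay on opposite sides of 0 without a call. Of 32 synaptic genes 23 were lower in all 3 mice and none was called, with a median of -0.60; Snap25, of the fusion machinery, was at 1010.1, 1279 and 1018 FPKM in control and 643, 613 and 434 FPKM in treated retinas (log2 difference -0.98, SE 0.26), and Slc17a7, the vesicular glutamate transporter of photoreceptors and bipolar cells, differed on the log2 scale by -0.06 (SE 0.27).

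**Figure D4:**
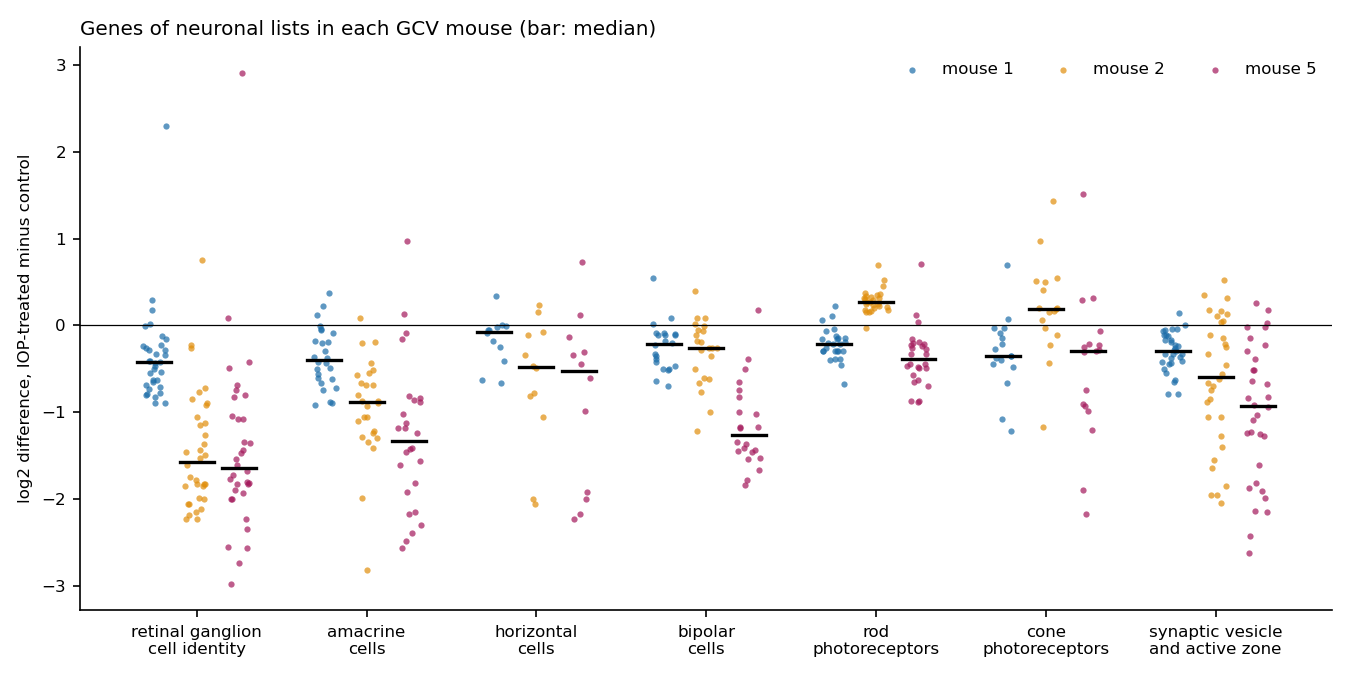
Log2 difference between the IOP-treated and the control retina (vertical axis) of each gene of 7 neuronal lists in mice 1, 2 and 5, with 1 point a gene and a black bar at the median. Ganglion cell genes have medians of -0.43, -1.57 and -1.64, whereas rod genes have -0.22, 0.27 and -0.38.

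Of 22 homeostatic genes of Mueller glia Crym rose, and the median was -0.10. Glul, glutamine synthetase, was at 1119, 1018 and 1035 FPKM in control and 602, 515 and 184 FPKM in treated retinas (log2 difference -1.45, SE 0.35, adjusted p = 0.129), and Rlbp1, the retinaldehyde-binding protein, at 215, 173 and 174 FPKM in control and 120.2, 144 and 67.9 FPKM in treated retinas (log2 difference -0.82, SE 0.22). Both were lower in each treated retina than in its own control, most so in mouse 5. Vim, the intermediate filament of these cells, was at 112, 73.7 and 75.3 FPKM in control and 211, 211 and 456 FPKM in treated retinas (log2 difference 1.66, SE 0.32, adjusted p = 0.0924).

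The 5 genes that fell included a pair of cholesterol synthesis genes. Hmgcs1, the synthase that forms HMG-CoA, went from 51.4, 60.7 and 56.5 FPKM in the control retinas of mice 1, 2 and 5 to 28.4, 30.5 and 22.7 FPKM in the treated ones (log2 difference -1.03, SE 0.14, adjusted p = 0.0403). Insig1, which retains the sterol sensor in the endoplasmic reticulum, went from 27.1, 30.3 and 24.9 to 12.2, 7.49 and 7.62 FPKM (log2 difference -1.52, SE 0.21, adjusted p = 0.0441). The 3 control values were close to each other for both genes and well above all treated values. Of 32 genes of cholesterol synthesis 2 fell, 25 were lower in all 3 mice against 24.6% of genes averaging at least 1 FPKM, and the median was -0.51 (-0.31, -0.47 and -0.61 in mice 1, 2 and 5). Fdft1, squalene synthase, was at 31.3, 36.4 and 33.0 FPKM in control and 19.4, 23.6 and 16.8 FPKM in treated retinas and just missed the threshold (adjusted p = 0.0503), with Acat2, Msmo1 and Fdps at log2 differences of -0.85, -0.64 and -1.10. Pmvk, phosphomevalonate kinase, lay on the other side at 46.5, 48.4 and 44.3 FPKM in control and 55.2, 75.5 and 71.9 FPKM in treated retinas (log2 difference 0.52, SE 0.15). A sterol regulatory element, TCACNCCAC, was in 3.45% of 29 promoter windows of this list and in 1.24% of all windows, and the 1 window was that of Hmgcs1, at chr13:119690101-119690350, where it lies 129 bases before the RefSeq start. GENCODE M21 begins this gene 28 bases after that start. The sequence is shown with the element in capitals.
Hmgcs1: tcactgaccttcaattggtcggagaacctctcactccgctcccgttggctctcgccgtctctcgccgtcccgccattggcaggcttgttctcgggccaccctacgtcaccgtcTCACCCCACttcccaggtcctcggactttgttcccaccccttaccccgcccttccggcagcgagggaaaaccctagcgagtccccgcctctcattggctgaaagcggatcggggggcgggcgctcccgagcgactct

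The other genes that fell were low. Slco1c1, the thyroxine carrier of the blood-brain barrier endothelium, went from 3.30, 2.24 and 2.51 to 0.488, 0.723 and 0.265 FPKM (log2 difference -1.31, SE 0.19, adjusted p = 0.0480) and was the 1 called gene among 29 of the endothelium. Trpc2 was at 1.21, 1.41 and 1.64 FPKM in control retinas and at 0, 0 and 0.00626 FPKM in treated ones. Its exons overlap those of Xndc1 and Xntrpc on the same strand, at chromosome 7, 102083116 to 102096396 (GRCm38), so the value may hold reads of these. Gm21949 was at 0.788, 0.775 and 0.868 FPKM in control retinas and was listed at 0 in the 3 treated ones. At these levels each value rests on few fragments, and Gm21949 and Trpc2 were at or near 0 in most retinas of the mice without GCV as well.

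C/EBP sites, TTGCNNAA, were in 53.3% of the 15 promoter windows of acute-phase genes and in 10.8% of all windows. Saa3, whose change was the largest of all called genes, is shown from chr7:46715677-46715926, with the site in capitals 92 bases before the RefSeq start. GENCODE M21 begins the gene 24 bases before that start, so the last 24 bases shown lie within its gene.
Saa3: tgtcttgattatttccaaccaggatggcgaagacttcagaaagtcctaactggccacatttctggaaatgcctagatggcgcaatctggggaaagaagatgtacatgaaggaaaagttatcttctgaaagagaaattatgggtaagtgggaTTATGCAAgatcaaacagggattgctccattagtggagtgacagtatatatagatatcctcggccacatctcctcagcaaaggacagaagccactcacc

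Cell cycle inhibitors and secreted factors are used to define senescent cells, which the transgene was made to remove. Cdkn2a, the gene of p16Ink4a, was at 0.345, 0.171 and 0 FPKM in control and 0.181, 0 and 0.601 FPKM in treated retinas (log2 difference 0.09, 95% interval -0.40 to 0.57, adjusted p = 0.885), so at this depth no difference was detectable in either direction. None of 17 inhibitors and related genes was called, with a median of 0.19. Cdkn1a, p21, was at 1.59, 2.09 and 1.75 FPKM in control and 7.39, 3.83 and 17.3 FPKM in treated retinas and was higher in each treated retina without a call (log2 difference 1.69, SE 0.38, adjusted p = 0.119). Of 51 measured genes of the senescence-associated secretory phenotype that the study lists, 4 rose (Fgf2, Ccl2, Timp1 and Tnfrsf1a), with a median of 0.30; of 79 extracellular matrix genes 2 rose (Tgfbi and Timp1) with a median of 0.19, and of 76 apoptosis genes 1 (Tnfrsf1a) with a median of 0.18. Over all genes tested 0.751% rose. The study gave these lists with its account of these same samples, citing earlier work, and whether their members were chosen by how they moved here is not given in the sources used here, so the counts are not offered as independent evidence of a direction. Tnfrsf1a, the tumor necrosis factor receptor, went from 4.0, 4.18 and 3.81 to 14.2, 14.0 and 22.4 FPKM (log2 difference 1.81, SE 0.27), and Tgfbi from 0.686, 0.362 and 0.985 to 14.3, 8.90 and 72.0 FPKM (log2 difference 3.75, SE 0.50). Casp1 and Casp8 were higher in each treated retina without a call (log2 difference 1.66, SE 0.35, and log2 difference 1.48, SE 0.32).

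Several lists stayed near the median of all genes. Medians were 0.01 for 44 genes of oxidative phosphorylation, -0.01 for 24 of the hypoxia response, 0.06 for 20 heat shock chaperones and -0.05 for 29 of the endothelium, with no gene of the first 3 called. Of 27 genes of metallothioneins, NRF2 targets and iron, Lcn2 rose, while Hmox1, heme oxygenase, was at 4.03, 3.50 and 6.40 FPKM in control and 27.7, 27.5 and 287 FPKM in treated retinas, highest in mouse 5 (log2 difference 3.49, SE 0.65, adjusted p = 0.0843). Of 40 proliferation genes none was called, although 26 were higher in all 3 treated retinas; Mki67 and Top2a were at 0.531, 0.528 and 1.43 and 0.727, 0.834 and 1.10 FPKM in treated retinas. On that list Spc25, a kinetochore protein, was the most abundant and went the other way, at 70.1, 74.1 and 84.3 FPKM in control and 22.8, 22.3 and 6.28 FPKM in treated retinas (log2 difference -2.27, SE 0.38, adjusted p = 0.0652). Collagens and basement membrane genes (31), matrix proteases and inhibitors (30), pericyte and smooth muscle genes (14) and clustered histones (23) had medians of 0.21, 0.34, 0.11 and -0.01, with Timp1 as the 1 call among them. Of 31 endothelins and trophic factors Edn2, Fgf2 and Cntf rose, and Fgf1 was at 32.1, 42.4 and 32.1 FPKM in control and 14.3, 9.70 and 4.47 FPKM in treated retinas (log2 difference -1.91, SE 0.46). In all, 75 of the 144 called genes were on some list and 69 on none.

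The 27 lens genes had the largest median of the 44 lists, 2.60, with no call. Of these genes 25 had a log2 difference above 0, 14 were higher and none lower in all 3 treated retinas, and 16 had an unadjusted p under 0.05 in limma. The medians differed between the mice, at 0.54, 3.39 and 3.06 in mice 1, 2 and 5. Cryaa, α-crystallin, was at 3848, 25.1 and 52.5 FPKM in control and 2545, 1380.1 and 2699.8 FPKM in treated retinas of mice 1, 2 and 5, higher in the control than in the treated eye of mouse 1 and the reverse in mice 2 and 5. Crygb, a lens fiber crystallin, was higher in all 3 treated retinas (12.4, 4.19 and 1.87 FPKM in control and 191, 80.5 and 17.8 FPKM in treated retinas). Rpe65, of the pigment epithelium, was at 22.3, 16.7 and 0.955 FPKM in control and 1.46, 1.64 and 4.15 FPKM in treated retinas. Medians were -0.01 for 19 pigment epithelium genes, 0.25 for 16 genes of the ciliary body, iris and cornea, among which Aldh1a1, also a retinal gene, rose on the log2 scale by 0.94 (SE 0.09), and -0.52 for 13 blood genes.

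Whether the response under GCV differed from that without it was tested as the interaction of IOP and GCV. No gene passed an adjusted p of 0.05 in limma (the smallest was 0.992), and 378 genes (2.04%) had an unadjusted p under 0.05. In the mice without GCV 75 genes were called for IOP (0.405%), of which 60 were also among the 144. Of the 144, 143 had the same sign without GCV and 103 a smaller difference. The median of the 139 genes that rose was 2.56 with GCV and 2.14 without it. The 144 were chosen for their difference with GCV, so this count is a description and no test, and a missed threshold does not show that the responses were alike. List medians were 1.64 with and 1.61 without GCV for interferon genes, 1.70 and 1.61 for gliosis, 2.01 and 1.66 for phagocytes, and -1.28 and -0.95 for ganglion cell genes. They were further apart for acute-phase genes (1.41 with and 0.75 without GCV), infiltrating leukocytes (1.07 and 0.59), class I genes (1.54 and 1.14) and lens genes (2.60 and 3.27). Without GCV the ganglion cell medians were -1.50, -0.03 and -1.27 in mice 3, 4 and 6. These differences between list medians were not tested. Among the genes with the smallest interaction p, Trpc2 (unadjusted p = 0.00056 in limma) had log2 differences of -1.27 with and -0.17 without GCV. Zdhhc23 (unadjusted p = 0.00095 in limma) had 0.72 and -0.13, and Gm2011 (unadjusted p = 0.0013 in limma) had -0.21 and -1.51. All 3 lie at low levels, under 4 FPKM in each of the 12 retinas. Edn2 had 4.08 with and 3.55 without GCV, a difference of 0.53 (SE 0.42), and Saa3 7.0 and 4.61, a difference of 2.39 (SE 1.42), and neither reached an unadjusted p of 0.05.

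**Figure D5:**
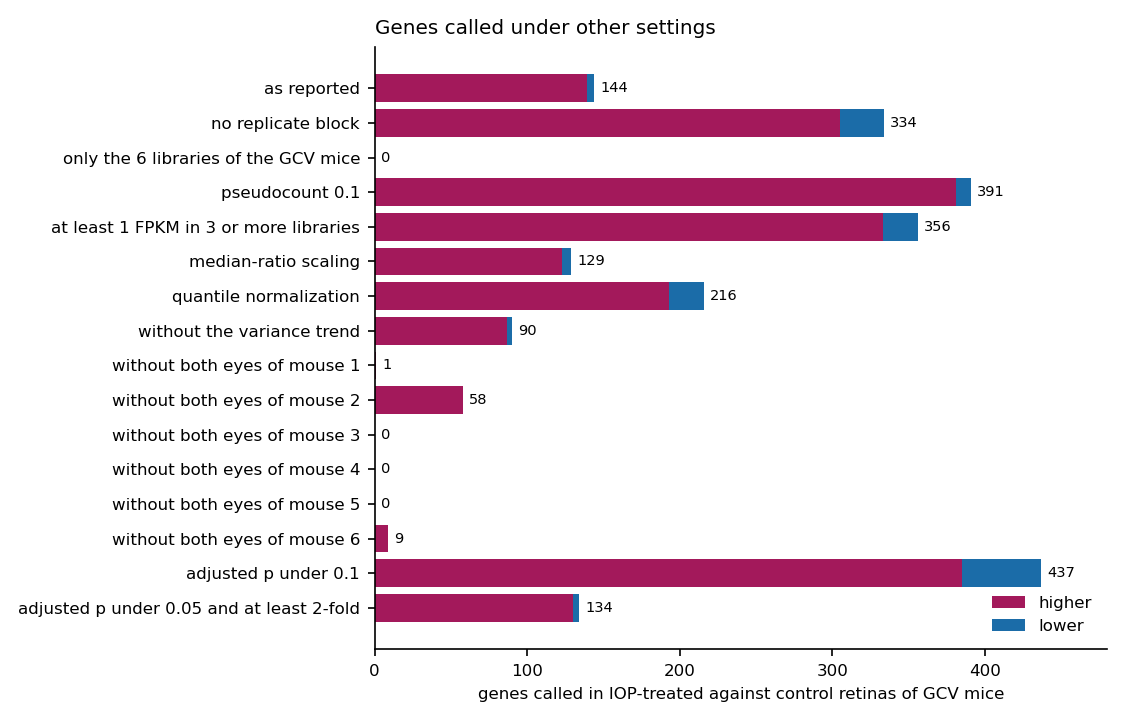
Number of genes called in IOP-treated against control retinas of GCV mice (horizontal axis; red higher, blue lower) under each setting of the analysis (rows). The count is 144 as reported and runs from 0 with the 6 GCV libraries alone to 391 with a pseudocount of 0.1 among the plotted settings that keep the threshold, and single left-out retinas, which reach 697 without the pairing, are not plotted.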

How the data were processed

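RNA of both retinas of 6 p16-3MR mice was measured. According to the methods and the labels, the authors made stranded mRNA libraries, read them as pairs of 50 bases and counted them on exons of RefSeq genes with HOMER, and the submitters' processing notes name TopHat2, Bowtie2, Cufflinks and Cuffdiff with build mm10. The authors deposited 1 table of FPKM values with 24340 rows and 12 columns. The unit was inferred from the values, which tool made them is not given in the sources used here, and no read counts are in the table, so depth was estimated: the smallest values of 1231 genes (transcripts of 1500 bases or more, shortened by 170 bases) fell within 0.1 of a whole number of fragments for 75.7% to 84.2% of values. Intervals for single values were not computed.

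limma 3.58.1 (R 4.3.3), with its variance trend, was fitted to log2(FPKM + 1) of the 18509 rows above 0 in at least 1 library. All 12 libraries entered the fit, with the mouse as a block, and the contrasts were IOP-treated against control with GCV, the same without GCV, and their difference. P-values were adjusted by Benjamini-Hochberg over all rows, and genes under 0.05 were called. Both eyes come from the same animal, which sets the pairing. Deviations of the eyes of a mouse from the group means correlated at -0.117, 0.132 and 0.166 in mice 1, 2 and 5, and at 0.207, 0.388 and 0.0998 in mice 3, 4 and 6, over 12910 genes. Eyes of different mice correlated at -0.258 to 0.261 with GCV and at -0.254 to 0.0765 without GCV. The same-mouse values with GCV lay within the former range. The fit left 4 residual degrees of freedom. When 200 of 18509 genes were changed in simulated data, 59 of 100 genes with a 2-fold and 99 of 100 with a 4-fold change were called, with 4 false calls. With 3 mice an exact sign-flip test of a single value cannot go below p = 0.25 (two-sided), so none was run.

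The 44 gene lists are described by counts and medians, with no set test, and lists can share genes. Genes named are the 10 largest rises and falls among called genes with at least 1 FPKM that moved alike in the 3 mice, the 10 with the smallest adjusted p, of each list up to 6 by p and up to 3 by level, the 5 called genes with the widest range between mice, the 5 with the smallest interaction p, Cdkn2a and all called falls. The retinas, lists and rules were chosen with earlier results of these data known. Promoter windows are those of RefSeq (GRCm38.p6), and coordinates of genes are from GENCODE M21 (GRCm38). The windows of Lcn2 and H2-T23 are not printed because exons of other transcripts lie in them. The values of some genes are not reported here. Alternatives were a fit without the block, the 6 GCV libraries alone, 0.1 as the pseudocount, only genes that reach 1 FPKM in 3 libraries, median-ratio or quantile scaling, no variance trend, other thresholds, and each mouse or retina left out. Python 3.11.15 with matplotlib 3.10.9 drew the figures, and pandas 2.3.3 with numpy 2.4.6 handled the tables.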

Additional observations from a re-analysis of the deposited data

Results flagged for a closer look

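A pair of genes moved in opposite directions in the mice with and without GCV, which drew attention to them although no interaction passed its adjusted p. Cd59b, an inhibitor of complement, was higher in the IOP-treated eye of all 3 GCV mice, with a log2 difference of 0.25, and lower in that of all 3 mice without GCV, with -0.52. The difference of these effects was 0.78 (SE 0.13, unadjusted p = 0.00072 in limma). Tmem79 had 0.18 with GCV and -0.40 without, a difference of 0.58 (SE 0.10, unadjusted p = 0.00081). The smallest adjusted p of the interaction over all genes was 0.992. Both genes were under about 1 FPKM in every retina, and Cd59b is a near copy of Cd59a, with which it can share reads.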

How the results depend on the processing

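Whether genes were called depended strongly on the spread that the fit estimated. The signs of the 144 differences could not turn under most alternatives, because all 3 GCV mice had the same sign, and they did not turn with either other scaling. Without the pairing of the eyes (no replicate block) 334 genes were called, 305 higher and 29 lower. With the 6 GCV libraries alone there were 0 in all, 0 higher and 0 lower. A pseudocount of 0.1 gave 391 (381 higher, 10 lower), a filter of at least 1 FPKM in 3 libraries 356 (333 and 23), and no variance trend 90 (87 and 3). Median-ratio scaling gave 129 and quantile normalization 216, with 23 lower under the latter. Leaving out both eyes of each of the 6 mice in turn gave 0 to 58 calls, 0 to 58 higher and 0 to 0 lower, and without the block each left-out retina gave 62 to 697, 61 to 660 higher and 1 to 37 lower. An adjusted p under 0.1 gave 437 (385 and 52), an unadjusted p under 0.05 gave 3535 (1843 and 1692), and 378 for the interaction. For the interaction, leaving out mice one at a time gave 0 to 1 calls and leaving out single retinas without the block 0 to 2. Of the 44 list medians, 14 moved by more than the spread between mice with the pseudocount of 0.1 and 8 with the filter, and 2, 2 and 5 without mouse 1, 2 or 5. The median of interferon genes was 2.60 and that of infiltrating leukocytes 2.47 with the pseudocount of 0.1, and that of acute-phase genes 2.78 with the filter. The causes were not tested, except that fewer libraries leave fewer residual degrees of freedom. Among genes named without a call, the direction depended on the mice: leaving out each GCV mouse in turn gave log2 differences of -0.21 to 0.25 for Cdkn2a (lowest without mouse 5), -0.26 to 0.11 for Slc17a7 (highest without mouse 5) and -0.32 to 0.13 for Gap43 (highest without mouse 2). The other alternatives that leave out no mouse gave no reversal. The depth, 6840000 to 8620000 estimated fragments, limits what can be said of genes under 1 FPKM.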
